A study of Mus musculus with 6 samples.

Results

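The 10 antigen presentation genes were Cd74, H2-Aa, H2-Ab1, H2-Eb1 and H2-DMa of the class II route, B2m of class I molecules, the peptide transporter genes Tap1 and Tap2, and the immunoproteasome genes Psmb8 and Psmb9. Every probe set whose platform annotation names 1 of these genes alone was taken, which gave 21 of the 45101 probe sets on the array and 10 of the 18194 genes that are named alone. Of the 21 probe sets, 12 were bright enough to be tested, and these cover 8 of the 10 genes. Tap1 and Psmb9 were represented only by dimmer probe sets and are given as values.

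The samples were olfactory epithelium, the nasal lining with the neurons that detect odours, from mice homozygous for the OMP-GFP allele (3 arrays) and from mice heterozygous for it (3 arrays). All animals thus carried the allele, in which, as background, a green fluorescent protein sequence stands in place of the coding part of Omp, the olfactory marker protein gene. Homozygous mice therefore make no olfactory marker protein, while heterozygous mice keep 1 intact Omp copy. GFP copy number differs between the groups too, no wild-type mice were included, and so loss of olfactory marker protein and added GFP cannot be told apart. The labels give no age, sex, strain or pooling of animals, so p-values reflect only how far these RNA samples spread, which may be technical. The comparison asked which transcripts of this tissue differ when olfactory marker protein is lacking.

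Antigen presentation shows peptides to T cells on 2 kinds of surface molecule. Class I molecules, made by nearly all nucleated cells, pair a heavy chain with beta-2 microglobulin and carry peptides that proteasomes cut in the cytosol and the Tap transporter moves into the endoplasmic reticulum. Class II molecules are made mainly by dendritic cells, macrophages and B cells, where the invariant chain escorts them to endosomes. In the olfactory mucosa, macrophages and dendritic cells lie in the epithelium and in the connective tissue under it, where they clear neurons lost to turnover. In whole tissue, fewer cells of a type and less RNA per cell cannot be told apart.

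The arrays held strong signal of the labelled tissue. The olfactory neuron genes Stoml3, Gng13 and Ric8b averaged 18996, 12149 and 8222 MAS5 signal units in homozygous arrays and 17810, 11759 and 7107 in heterozygous arrays. Some libraries stood apart. At the Omp probe set 1422199_at the signal was 5.7, 8.8 and 31.3 in homozygous arrays, against 26.3, 4664 and 9143 in heterozygous replicates 1, 2 and 3. There the library labelled heterozygous 1 falls inside the homozygous range, and the position of this probe set within Omp is not known here. The other Omp probe set, 1422200_at, was bright on all arrays, at 7918.5 to 8774.4 in homozygous arrays and 7967.8 to 8708.7 in heterozygous arrays, a log2 difference of -0.01 ± 0.06. The library labelled heterozygous 1 read 7268.5 for the myelin gene Mbp, against 655.2 to 1037.9 on the other 5 arrays. Heterozygous 3 read 791.1 for the brain neuron gene Rbfox3, against 49.5 to 184.2 on the others. The 4 tested olfactory bulb and brain markers did not move together there. Cplx1 was also highest in heterozygous 3, at 738.2, whereas Eomes and Cdhr1 were lowest in it, at 205.2 and 2041.5. The mature olfactory neuron markers of heterozygous 3 were on average 0.355 below their mean over the arrays on the log2 scale. Homozygous 1 stood apart in red cell and neutrophil markers, which lay 0.952 and 0.602 above their means over the arrays, against -0.732 to 0.007 and -0.381 to 0.141 on the other 5. Values without single libraries are given beside some of the members.

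None of the 12 tested probe sets passed the test for a difference between the groups. In limma, 0 of 12 had an adjusted p under 0.05, the lowest being 0.884. Of all 22514 probe sets tested, 0 passed as well, or 0%. At an unadjusted p under 0.05 there were 0 of 12, beside 5.73% of all tested probe sets (1291). The groups overlapped at all 12, whereas they did not overlap at 10.9% of all tested probe sets. The log2 difference, homozygous minus heterozygous, had a median of 0.09 over the 12, with 10 positive and 2 negative, beside a median of 0.01 over all tested probe sets, of which 53.6% were positive. The 95% intervals of the 12 differences reached no lower than -0.478 and no higher than 0.747 on the log2 scale. The median was 0.02 when homozygous 1 was left out, 0.06 when the library labelled heterozygous 1 was, and 0.02 when heterozygous 3 was. It was 0.11 without homozygous 2 and 0.18 without heterozygous 2. Without homozygous 3 it was 0.08, over the 11 probe sets then tested.

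**Figure D1:**
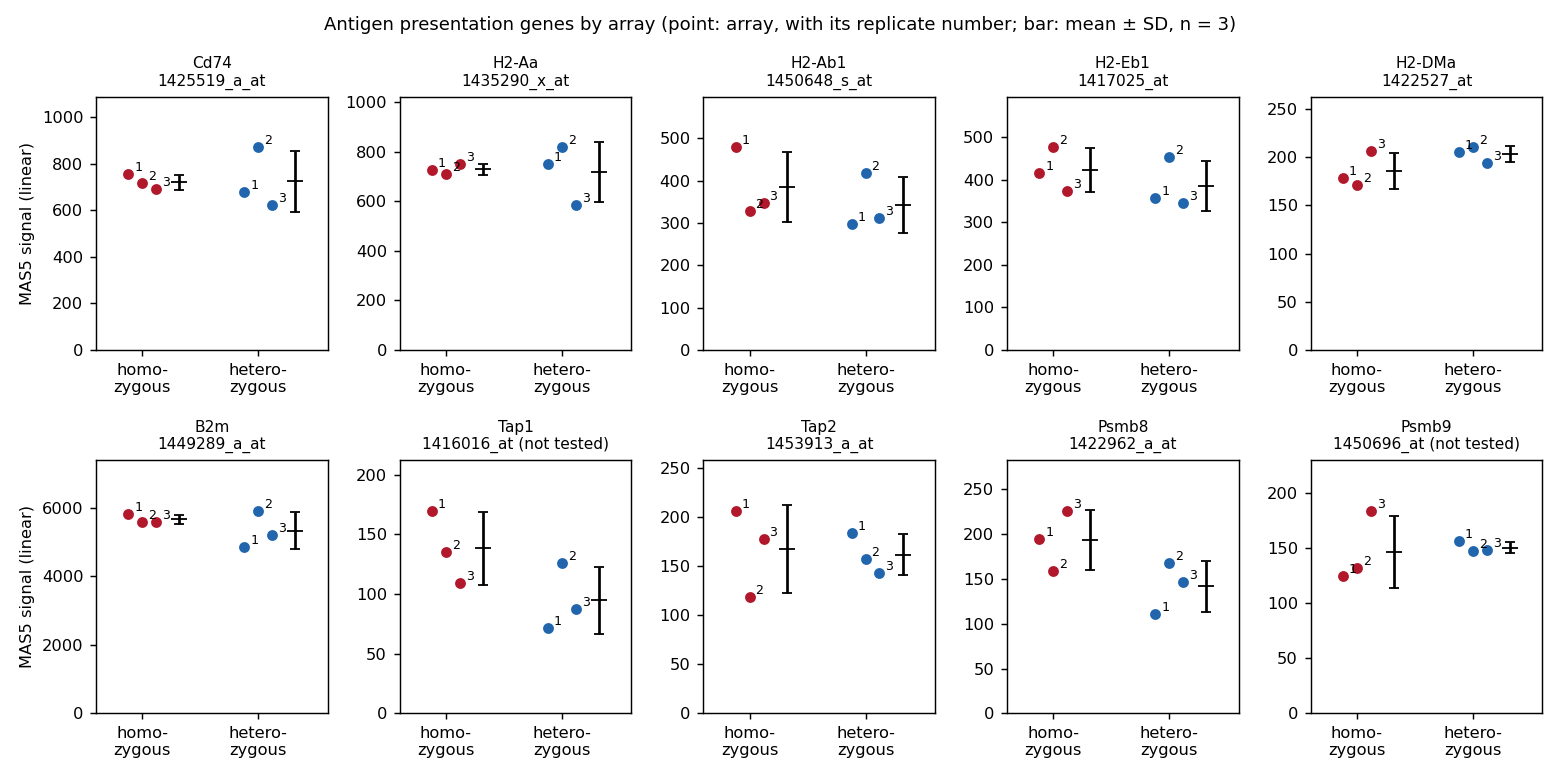
MAS5 signal (linear axis from 0) of the 10 genes at their brightest probe set, homozygous arrays on the left and heterozygous arrays on the right of each panel. Each point is an array with its replicate number and the bar is the mean ± SD (n = 3). The groups overlap in every panel, and heterozygous 2 is the highest heterozygous array in every panel except those of Tap2 and Psmb9.

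Cd74 encodes the invariant chain, which escorts newly made class II molecules and blocks their groove until peptide is loaded. Its probe set 1425519_a_at read 754.5, 715.5 and 692.0 in homozygous 1, 2 and 3, against 678.2, 870.5 and 624.2 in heterozygous 1, 2 and 3. The highest and the lowest array were both heterozygous, and the homozygous arrays lay between them. The difference was 0.01 ± 0.12 on the log2 scale (SE), an interval from 0.836-fold to 1.21-fold, with a limma adjusted p of 0.997. It was 0.14 without heterozygous 2, -0.03 without heterozygous 1 and -0.09 without heterozygous 3. Without both heterozygous 1 and 3, left out together after the data were seen, it was -0.26. That value is set against heterozygous 2 alone, the highest array for Cd74.

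H2-Aa encodes the alpha chain of the class II molecule I-A, and 3 of its 4 probe sets were tested. At 1435290_x_at the signal was 724.4, 709.6 and 751.7 in homozygous arrays, against 750.9, 817.5 and 584.4 in heterozygous arrays. As for Cd74, heterozygous 2 was highest and heterozygous 3 lowest. The log2 difference was 0.03 ± 0.12, at an adjusted p of 0.99 in limma, and it was -0.10 without heterozygous 3. The other probe sets pointed in different directions. At 1452431_s_at the signal was 197.5, 186.0 and 177.7 in homozygous arrays, against 224.6, 242.2 and 179.2 in heterozygous arrays, a log2 difference of -0.16 ± 0.14. Leaving out heterozygous 3 made it -0.27. At 1438858_x_at it was 267.2, 183.7 and 188.9 in homozygous arrays, against 177.7, 243.0 and 155.3 in heterozygous arrays, a log2 difference of 0.13 ± 0.18. This last value was 0.28 without heterozygous 2 and 0.01 without heterozygous 3. It was -0.02 without homozygous 1, the only homozygous array above all heterozygous ones. The fourth probe set, 1443783_x_at, stayed between 14.3 and 31.2 on all arrays and was not tested. A name ending in _x_at or _s_at marks a probe set whose probes may also match other transcripts, so these H2-Aa values are uncertain in that respect.

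H2-Ab1 encodes the beta chain that pairs with H2-Aa. Its probe set 1450648_s_at read 478.8, 327.3 and 348.1 in homozygous arrays, against 296.7, 418.0 and 311.0 in heterozygous arrays. Homozygous 1 was the highest array and the library labelled heterozygous 1 the lowest. The log2 difference was 0.15 ± 0.16, at an adjusted p of 0.929 in limma. It was 0.07 without heterozygous 1, 0.29 without heterozygous 2 and -0.0027 without homozygous 1. At 1451721_a_at the signal was 203.7, 182.7 and 210.2 in homozygous arrays, against 122.5, 247.3 and 151.6 in heterozygous arrays. All 3 homozygous arrays lay inside the heterozygous range, which spanned 122.5 to 247.3. The log2 difference there was 0.20 ± 0.20, which became 0.02 without heterozygous 1 and 0.44 without heterozygous 2. The third probe set, 1425477_x_at, was dimmer, at 119.5, 126.0 and 71.4 in homozygous arrays, against 40.0, 99.7 and 86.7 in heterozygous arrays.

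H2-Eb1 encodes the beta chain of the class II molecule I-E and has a single probe set, 1417025_at. It read 416.6, 475.8 and 372.7 in homozygous arrays, against 358.0, 452.9 and 345.6 in heterozygous arrays. All 3 homozygous arrays lay above heterozygous 1 and 3, and heterozygous 2 lay above homozygous 1 and 3. The log2 difference was 0.12 ± 0.13 with a limma adjusted p of 0.931. It was 0.23 without heterozygous 2, 0.05 without heterozygous 3 and 0.04 without homozygous 2. H2-DMa encodes a chain of the H2-DM molecule, which removes the invariant chain fragment from the class II groove. Its probe set 1422527_at read 178.3, 171.1 and 206.7 in homozygous arrays, against 205.1, 210.1 and 193.9 in heterozygous arrays. Here the heterozygous arrays lay close together and homozygous 1 and 2 lay under them. The log2 difference was -0.11 ± 0.13 with a limma adjusted p of 0.944. Its other probe set, 1459872_x_at, lay between 1.6 and 22.8 and was not tested. Over the 8 tested class II probe sets the median log2 difference was 0.08, with 6 positive and 2 negative and 0 at an unadjusted p under 0.05.

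The upstream sequences of H2-Aa and H2-Eb1 are shown because these genes are known to be switched on together through shared promoter boxes, among them the Y box, an inverted CCAAT. The windows hold the 250 bases before the annotated start (RefSeq, GRCm38.p6), written 5′ to 3′ on the strand of the gene, with motif matches in capitals. H2-Aa lies at chr17:34287824-34288073 on the minus strand and H2-Eb1 at chr17:34305617-34305866 on the plus strand.
H2-Aa: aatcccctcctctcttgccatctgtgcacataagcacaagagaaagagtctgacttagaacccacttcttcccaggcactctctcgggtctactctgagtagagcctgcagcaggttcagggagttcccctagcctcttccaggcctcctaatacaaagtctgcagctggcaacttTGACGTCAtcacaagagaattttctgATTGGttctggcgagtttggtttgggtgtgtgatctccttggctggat
H2-Eb1: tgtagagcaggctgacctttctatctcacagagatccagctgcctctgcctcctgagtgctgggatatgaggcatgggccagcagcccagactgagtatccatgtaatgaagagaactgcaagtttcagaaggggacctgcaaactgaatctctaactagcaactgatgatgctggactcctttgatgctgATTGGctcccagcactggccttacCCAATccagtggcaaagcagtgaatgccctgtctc
The capitals mark ATTGG or its reverse CCAAT in both genes, and TGACGTCA in H2-Aa. In H2-Aa the ATTGG lies 48 to 44 bases before the start and the TGACGTCA 74 to 67 bases before it. In H2-Eb1 an ATTGG lies 59 to 55 bases before the start and a CCAAT 35 to 31 bases before it. Searched on both strands in all 32851 windows of the table, ATTGG was found in 33.8% and TGACGTCA in 1.55%. The interferon-stimulated, gamma-activated and kappa B motifs, spelled out with B2m, were searched in the same way and are not in these windows. These are matches of letters, not measured binding.

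B2m encodes beta-2 microglobulin, the light chain shared by class I molecules. Its probe set 1449289_a_at read 5816.4, 5573.7 and 5598.2 in homozygous arrays, against 4864.6, 5916.8 and 5206.1 in heterozygous arrays. All 3 homozygous arrays lay above heterozygous 1 and 3 and below heterozygous 2. Its other probe set, 1452428_a_at, read 4672.1, 4401.6 and 4663.8 in homozygous arrays, against 4077.1, 4943.1 and 3947.8 in heterozygous arrays, in the same arrangement. The log2 differences were 0.09 ± 0.08 and 0.09 ± 0.09 (SE), with limma adjusted p values of 0.915 and 0.923. The intervals ran from 0.948-fold to 1.20-fold at the first probe set and from 0.932-fold to 1.21-fold at the second, the narrowest among the members. Without heterozygous 1 the differences were 0.03 and 0.05, and without heterozygous 3 they were 0.08 and 0.03, in the same order of probe sets. Without heterozygous 2 they were 0.17 and 0.19, at unadjusted p values of 0.0324 and 0.0224 and an adjusted p of 0.934 each in limma.

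The window before B2m is shown because it carries both boxes known for class I genes and motifs known from interferon and inflammatory signalling. It lies at chr2:122147437-122147686 on the plus strand.
B2m: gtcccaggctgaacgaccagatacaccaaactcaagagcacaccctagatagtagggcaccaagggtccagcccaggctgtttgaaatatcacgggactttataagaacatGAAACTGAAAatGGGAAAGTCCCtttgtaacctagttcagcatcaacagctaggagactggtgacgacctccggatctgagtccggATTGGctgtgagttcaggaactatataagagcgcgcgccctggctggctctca
The capitals mark GAAACTGAAA, a match to the interferon-stimulated element core (GAAA, 2 bases of any kind, GAAA), then GGGAAAGTCCC, overlapping matches on both strands to a kappa B form (GGGA, 3 bases of any kind, TCC), and an ATTGG. They lie 139 to 130, 127 to 117 and 53 to 49 bases before the start. Of all 32851 windows, 2.98% held the interferon-stimulated core and 3.86% the kappa B form, searched on both strands. Of the 10 genes, 7 had a window that was searched, and those of Cd74, H2-Ab1 and Tap2 were not used here. TTCNNNGAA, the gamma-activated element, was found in 7.02% of all windows and, among the windows of these 7 genes, only in that of Psmb8.

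Tap1 and Tap2 encode the partner chains of the transporter that carries cytosolic peptides to class I molecules. Tap1 at its brightest probe set, 1416016_at, read 169.9, 135.2 and 109.6 in homozygous arrays, against 71.3, 125.9 and 87.5 in heterozygous arrays. Homozygous 1 and 2 lay above all heterozygous arrays and homozygous 3 lay below heterozygous 2. This probe set fell under the filter, and the fit of all probe sets without a filter gave 0.41 ± 0.22 on the log2 scale with a limma adjusted p of 0.905. Its other 3 probe sets stayed between 1.8 and 48.2 on all arrays and gave differences of 0.09, 0.21 and -0.01 in the same fit. Tap2, probe set 1453913_a_at, read 206.5, 118.9 and 177.6 in homozygous arrays, against 184.1, 157.1 and 143.0 in heterozygous arrays. The heterozygous arrays lay within the homozygous range, and the log2 difference was 0.03 ± 0.19 with a limma adjusted p of 0.995. Tap2 was -0.11 without homozygous 1 and 0.21 without homozygous 2, so its direction rests on single arrays.

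Psmb8 and Psmb9 encode catalytic subunits that replace constitutive ones to form the immunoproteasome, which favours peptides that bind class I molecules. Psmb8 at 1422962_a_at read 194.5, 159.0 and 225.9 in homozygous arrays, against 111.3, 167.7 and 146.6 in heterozygous arrays. It had the largest difference of the 12 tested probe sets, 0.36 ± 0.17 on the log2 scale, with an unadjusted p of 0.0619 and an adjusted p of 0.884 in limma. Homozygous 2 lay below heterozygous 2 and was the lowest homozygous array, so leaving it out raises the difference by construction. The difference was then 0.47, with an unadjusted p of 0.0332 and an adjusted p of 0.9997 in limma. Without heterozygous 1 it was 0.24. The other Psmb8 probe set, 1444619_x_at, lay between 1.3 and 5.2. Psmb9 at 1450696_at read 124.1, 131.7 and 183.7 in homozygous arrays, against 156.4, 146.8 and 147.7 in heterozygous arrays. The heterozygous arrays lay between the homozygous ones, and the fit without a filter gave -0.04 ± 0.17 with a limma adjusted p of 0.991.

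Psmb9 and Tap1 stand head to head, with 225 bases between their annotated starts, and this stretch is shown because it lies upstream of both. It spans chr17:34187331-34187555 and is written on the plus strand, that of Tap1, so that it begins beside the start of Psmb9 and ends beside that of Tap1.
Psmb9 to Tap1: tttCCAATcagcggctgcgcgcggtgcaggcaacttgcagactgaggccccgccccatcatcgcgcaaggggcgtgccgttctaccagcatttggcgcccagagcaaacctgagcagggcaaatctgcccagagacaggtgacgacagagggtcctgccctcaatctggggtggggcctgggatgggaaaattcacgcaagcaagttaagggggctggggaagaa
The capitals mark a CCAAT, 222 to 218 bases before the Tap1 start, which on the strand of Psmb9 is an ATTGG 8 to 4 bases before the Psmb9 start. The array values of this gene pair were arranged differently. Homozygous 1 was the highest array for Tap1 and the lowest for Psmb9, and homozygous 3 was the highest for Psmb9 and the lowest homozygous array for Tap1. Both genes were under the filter, and no test compared them.

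**Figure D2:**
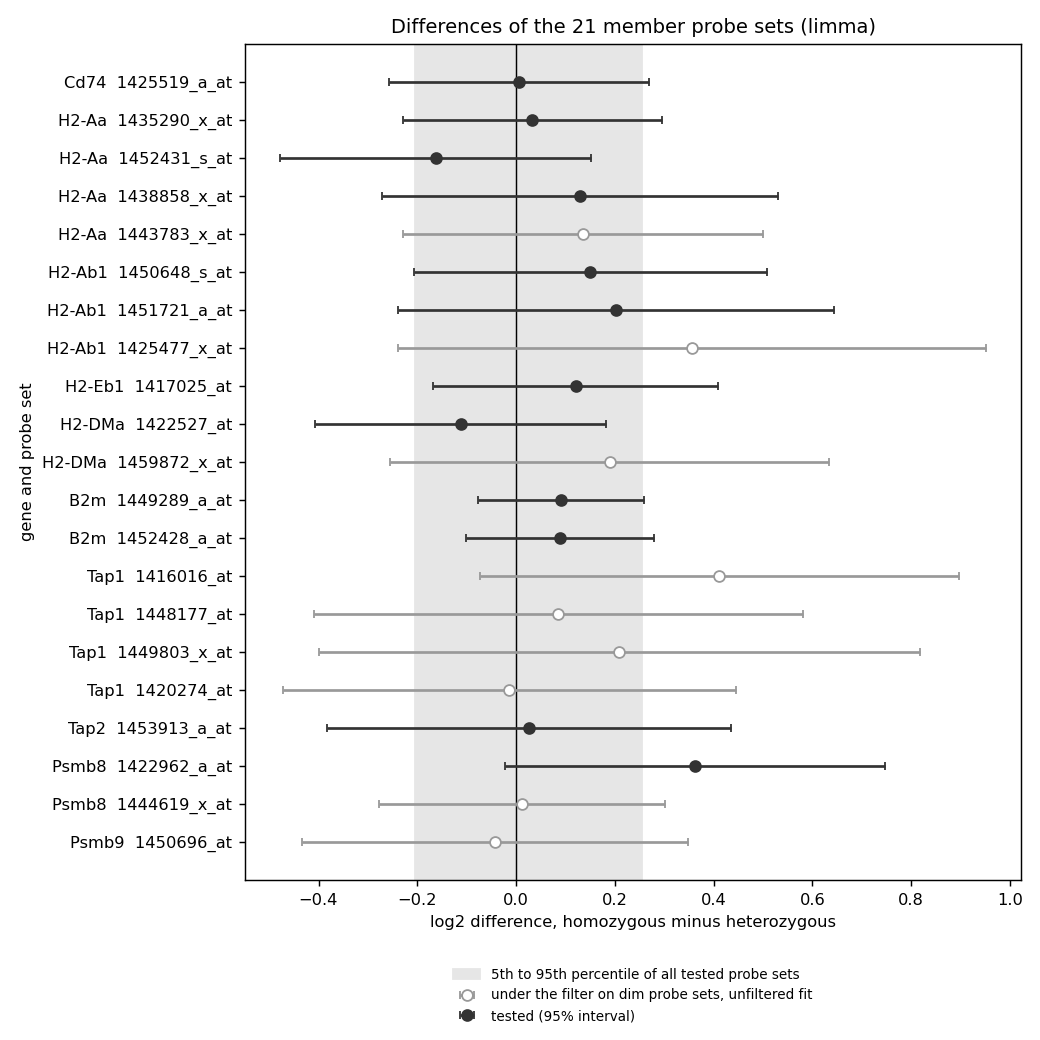
Log2 difference, homozygous minus heterozygous, with its 95% interval from limma for the 21 probe sets, filled where tested and open where under the filter on dim probe sets. The grey band runs from the 5th to the 95th percentile of all tested probe sets, -0.205 to 0.255; every interval crosses 0, and Psmb8 1422962_a_at is the only filled point outside the band.

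The members spread more widely among the heterozygous arrays than among the homozygous ones. Over the 12 tested probe sets the median SD of log2 values was 0.104 in homozygous and 0.214 in heterozygous arrays, and the heterozygous SD was the larger at 9 of 12. Over all tested probe sets those medians were 0.099 and 0.131, and the heterozygous SD was the larger at 62.5%. Heterozygous 2 was the highest of the 6 arrays at 7 of 12 member probe sets and the lowest at 0. Heterozygous 3 was the lowest at 5 and heterozygous 1 at 4 of 12, and neither was the highest at any. Of all tested probe sets, heterozygous 2 was the highest at 16.4%, and heterozygous 3 and 1 were the lowest at 23.9% and 18.2%. Members that share a gene share its transcripts, so the 12 are not independent.

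**Figure D3:**
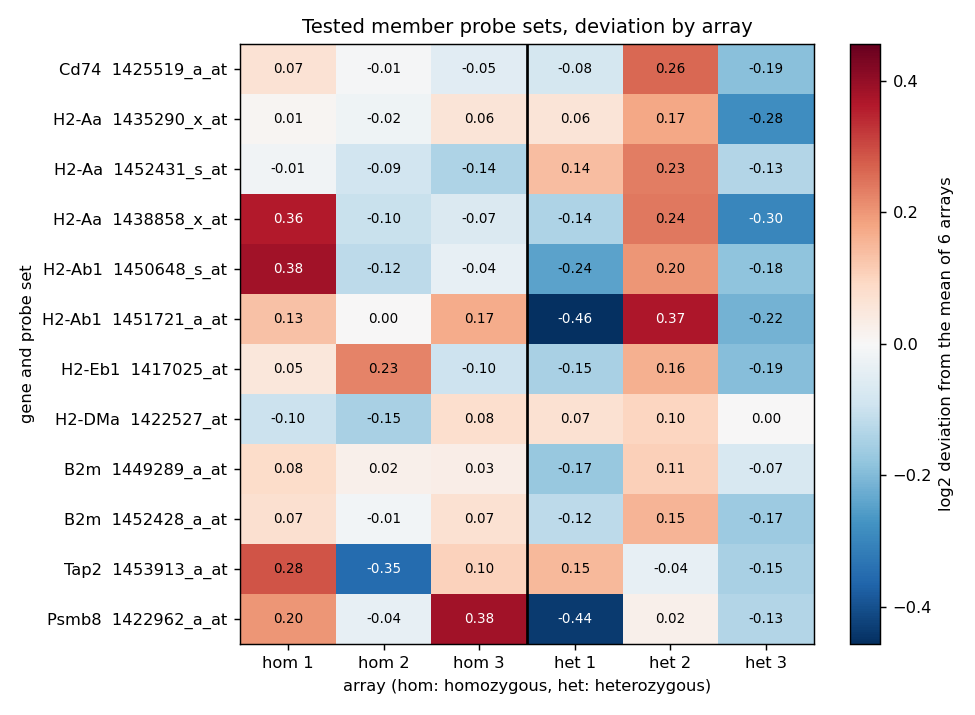
Log2 deviation of each tested member probe set (rows) from its mean over the 6 arrays, by array (columns), with homozygous arrays left of the black line and heterozygous arrays right of it. Heterozygous 2 is positive in 11 of the 12 rows, with Tap2 at -0.04, and the strongest negative value is -0.46 for H2-Ab1 1451721_a_at in heterozygous 1.

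Heterozygous 2 is singled out here because the members were most often highest in it. Leaving it out therefore raises most of their differences by construction, and shares over all tested probe sets are no like background. The values show only how far the comparison rests on this array. Without heterozygous 2, 4 of the 12 probe sets had an unadjusted p under 0.05, all higher in homozygous arrays, beside 5.15% of all tested probe sets, 2.87% in that direction. They were H2-Ab1 1451721_a_at, both B2m probe sets and Psmb8 1422962_a_at, each with a limma adjusted p of 0.934. The median difference over the 12 was then 0.18. With heterozygous 2 as the only heterozygous array, it was -0.14. Without heterozygous 1 or without heterozygous 3 alone, 0 of 12 had an unadjusted p under 0.05.

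Over the 5 class II genes at their brightest probe sets, the mean log2 deviation was 0.082, -0.013 and -0.010 in homozygous 1, 2 and 3, against -0.069, 0.180 and -0.170 in heterozygous 1, 2 and 3. Interferon-stimulated genes, with 6 tested, lay at 0.057, -0.112 and 0.094 in homozygous arrays, against -0.177, 0.232 and -0.094 in heterozygous arrays, so heterozygous 2 was their highest array too. Of these 6 genes, 0 had an unadjusted p under 0.05. Class I heavy chain genes and relatives, also 6, lay at 0.022, -0.023 and 0.097 in homozygous arrays, against -0.059, 0.064 and -0.100 in heterozygous arrays. Macrophage markers, with 10 tested, lay at 0.121, 0.028 and 0.107 in homozygous arrays, against -0.092, -0.025 and -0.140 in heterozygous arrays, so for them heterozygous 2 lay below every homozygous array. Their part in the class II values was not tested.

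**Figure D4:**
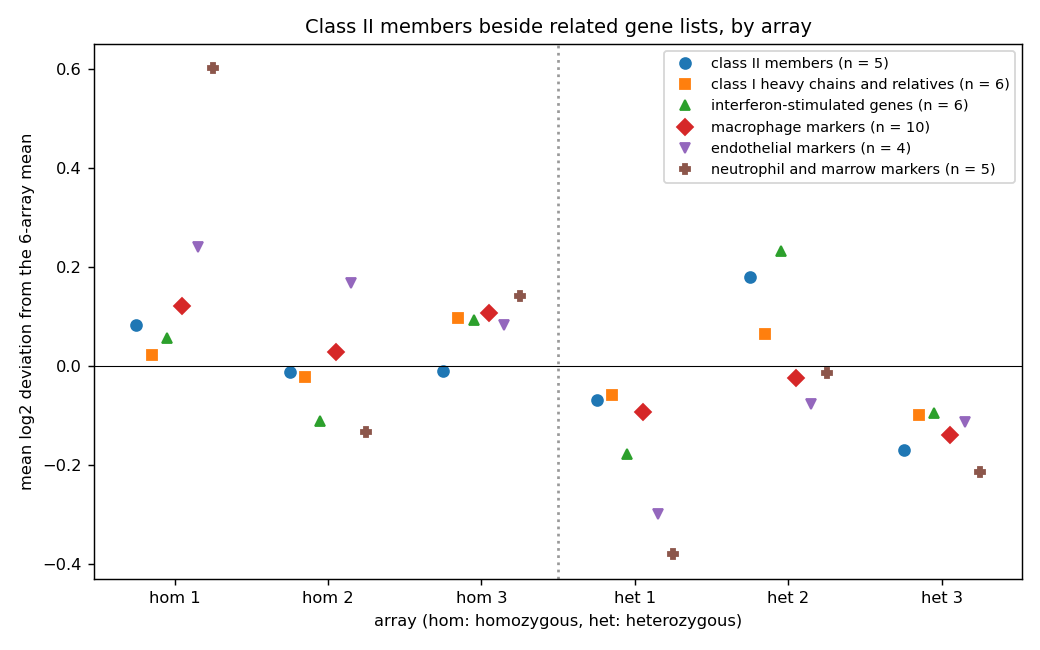
Mean log2 deviation from the mean over 6 arrays for the 5 class II genes and for 5 gene lists, by array, homozygous arrays left and heterozygous arrays right of the dotted line; n is the number of genes tested. In heterozygous 2 the class II genes lie at 0.18 and the interferon-stimulated genes at 0.23, while the macrophage markers lie at -0.03.

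The likeness of the other members to Cd74 was measured over the 6 arrays on the log2 scale, in 9 relations, each at the gene's brightest probe set. Pearson's r was 0.786 for H2-Aa, 0.723 for H2-Ab1, 0.737 for H2-Eb1 and 0.743 for B2m. The exact permutation p of these 4 lay between 0.0792 and 0.1, and each was 0.225 after Benjamini-Hochberg adjustment. Spearman's rho was 0.543, 0.829, 0.829 and 0.886 for these genes in the same order, and the lowest exact permutation p, that of B2m, was 0.0333 with an adjusted value of 0.175. None of the 9 relations passed adjustment. Tap1 had an r of 0.584, Psmb8 of 0.275, H2-DMa of 0.132, Tap2 of 0.125 and Psmb9 of -0.266. Their rho was 0.771, 0.543, 0.143, 0.143 and -0.6, and the exact permutation p of these 5 lay between 0.208 and 0.822 for r and between 0.103 and 0.803 for rho. Without heterozygous 2 and 3, the arrays farthest from the Cd74 median, r was -0.687 for H2-Aa, 0.909 for H2-Ab1, 0.599 for H2-Eb1 and 0.790 for B2m, so the relation with H2-Aa rests on those arrays. It was 0.944 for Tap1, 0.447 for Psmb8, -0.768 for H2-DMa, 0.139 for Tap2 and -0.789 for Psmb9. As background, 6% of all tested probe sets had an r with Cd74 at least as high as that of B2m. Values of an array share its scaling, and 3 arrays a group are too few for a value within each group.

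The genes whose pattern was most like the mean of the class II genes were Hint3, Cmtm7, D6Wsu163e, Golph3l and Mydgf, with Pearson's r between 0.977 and 0.992 over the 6 arrays. They come from 11335 tested genes outside the lists, of which 33 had an r above 0.95. How many such genes 6 arrays would give by chance was not tested. For Cmtm7 the signal was 774.9, 711.7 and 704.9 in homozygous arrays, against 655.7, 876.4 and 629.3 in heterozygous arrays. The order of its arrays matched that of Cd74, which the choice by likeness to a mean that includes Cd74 favours.

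Other genes of the pathway were then examined, at 1 probe set a gene. Of 49 such genes with a probe set, 31 were tested with limma. Of these, 1 had an unadjusted p under 0.05 and 0 passed adjustment, beside 4.81% and 0% of 11426 genes tested. Their median log2 difference was 0.04, with 17 positive and 14 negative, beside a median of -0.0004 over all genes tested, of which 49.8% were positive. The groups did not overlap at 3 of the 31, Ifngr1, Irf1 and, named after its values were seen, Mr1, beside 10.3% of all genes tested. The gene under 0.05 was Ifngr1, which encodes the ligand-binding chain of the interferon gamma receptor. It read 545.2, 517.4 and 615.8 in homozygous arrays, against 435.2, 494.2 and 449.8 in heterozygous arrays. Its groups did not overlap, and the log2 difference was 0.26 ± 0.10 with a limma adjusted p of 0.859. The count of pathway genes under 0.05 was 0 when the library labelled heterozygous 1 was left out and 3 when heterozygous 2 was. Ifngr2, its partner chain, differed by -0.06, and Irf1, a transcription factor induced by interferon gamma, by 0.11.

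All 5 tested genes of class II presentation had positive log2 differences, from 0.04 to 0.36, and 0 had an unadjusted p under 0.05. Ctsl, a lysosomal protease, read 4537, 3970 and 4688 in homozygous arrays, against 3906, 4273 and 4049 in heterozygous arrays. Lgmn, another lysosomal protease, differed by 0.04. The other 3, named after their values were seen, were Ctss at 0.22, Ifi30 at 0.06 and H2-DMb2, a chain of H2-DM, at 0.36 ± 0.24. H2-Ea, the alpha chain of I-E, was dim, at 38.1, 42.0 and 27.1 in homozygous arrays, against 12.7, 23.7 and 15.6 in heterozygous arrays. Those groups did not overlap, and the fit without a filter gave 0.41 with a limma adjusted p of 0.905. The other dim genes of this list were named after their values were seen, and their groups overlapped. In the same fit H2-Eb2 was at -0.41 with a limma adjusted p of 0.905. H2-Oa, H2-Ob and Marchf1 were at -0.13, 0.06 and 0.08. Ciita, the master regulator of class II genes, was dim too, at 18.4, 31.8 and 40.0 in homozygous arrays, against 51.3, 41.3 and 70.2 in heterozygous arrays, so it lay lower in every homozygous array than in any heterozygous one. For Ciita the fit without a filter gave -0.44 with a limma adjusted p of 0.905. Without a filter, the groups do not overlap at 10.8% of all probe sets.

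Among the 6 tested class I heavy chains and relatives, 5 differences were positive, the exception being Cd1d1 at -0.11. Of these 6 genes, 0 had an unadjusted p under 0.05. Another 5 genes were under the filter and were named after their values were seen. H2-T24 averaged 69.7 in homozygous and 93.8 in heterozygous arrays without overlap, beside 10.8% of all probe sets without a filter. The fit without a filter gave -0.29 for H2-T24, -0.40 for H2-T3 and -0.0048 for H2-Q2. It gave 0.33 for H2-Q10 and 0.03 for H2-M3, and the limma adjusted p values ran from 0.905 to 0.998. H2-K1 read 3133.7, 2904.8 and 2907.5 in homozygous arrays, against 2514.1, 3397.3 and 2244.1 in heterozygous arrays, so its homozygous arrays lay between heterozygous 2 and the other heterozygous arrays, as those of B2m did. H2-D1 read 2811.6, 2504.7 and 3014.3 in homozygous arrays, against 2619.7, 3166.0 and 2276.8 in heterozygous arrays. Class I genes resemble each other closely, and both probe sets end in _x_at, so their signals may be shared between these genes. In the peptide loading list, 2 of 6 differences were positive, with Pdia3, a disulfide isomerase of the loading complex, at 0.08, Erap1, a peptide-trimming protease named after its values were seen, at 0.28 ± 0.19, and the chaperone gene Calr at -0.03. Among other proteasome genes, 1 of 6 was positive, Psmb10, the third immunoproteasome subunit, at 0.13 ± 0.12. The constitutive subunit genes Psmb7 and Psmb5 differed by -0.06 and -0.05. All 5 costimulation genes were under the filter, and the brightest, Icosl and Cd274, lay between 65.9 and 165.2 on all arrays.

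**Figure D5:**
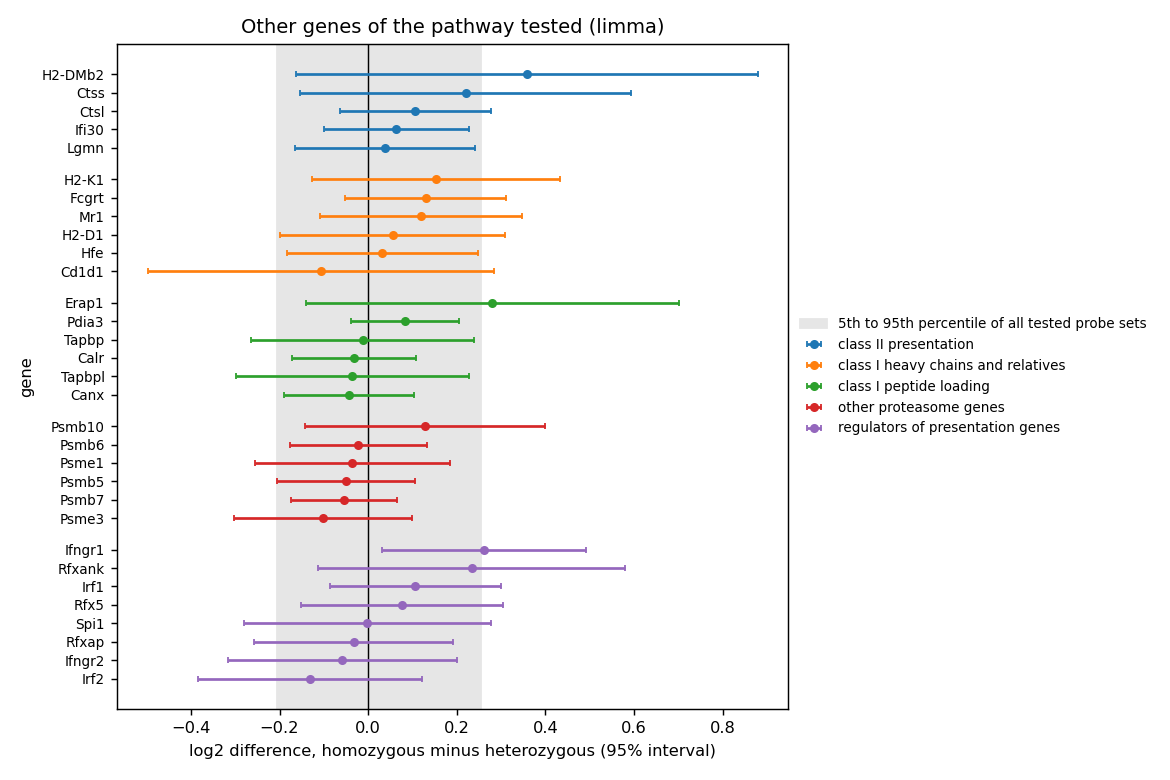
Log2 difference, homozygous minus heterozygous, with its 95% interval from limma for the 31 tested pathway genes outside the 10 members, coloured by list. The grey band runs from the 5th to the 95th percentile of all tested probe sets; the interval of Ifngr1, around 0.26, is the only one that lies wholly above 0.

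The cells known to carry class II molecules were followed by their markers. For macrophages, 9 of 10 tested markers had positive differences and 5 had an unadjusted p under 0.05, with 0 past adjustment in limma, beside 4.81% of all genes tested, and their median log2 difference was 0.22. The 5 were Ptprc, Cd14, Cd68, Mrc1 and C1qb, named after their values were seen. That count was 2 of 10 without homozygous 1, 2 without heterozygous 1, 3 without heterozygous 3 and 1 without heterozygous 1 and 3 together, beside 3.22%, 6.57%, 7.27% and 7.66% of genes tested in those fits. The summed signal of the 12 markers with a probe set ran from 8468.5 to 9250.2 in homozygous arrays and from 7760.4 to 8401.7 in heterozygous arrays. Csf1r, Lyz2 and Cd68, their brightest members, differed by 0.05, 0.22 and 0.22. For dendritic cells, 1 of 8 markers was bright enough to be tested, Zbtb46, at -0.22 ± 0.13 with a limma adjusted p of 0.90. The summed signal of the 8 ran from 644.0 to 751.6 in homozygous arrays and from 577.4 to 880.6 in heterozygous arrays. Itgax and Batf3 averaged 65.7 and 45.3 in homozygous arrays and 78.8 and 78.1 in heterozygous arrays. Other dim markers of this list, named after their values were seen, lay the other way without overlap, with Flt3, Xcr1 and Ccr7 averaging 60.9, 30.0 and 9.1 in homozygous arrays and 15.3, 9.8 and 2.9 in heterozygous arrays. For B cells, 1 of 7 was tested, Ighm, at -0.01 ± 0.16, and Cd79b and Pax5 averaged 72.4 and 75.3 in homozygous arrays and 60.7 and 50.7 in heterozygous arrays. The other dim B cell markers were named after their values were seen. Ms4a1 and Cr2 averaged 53.8 and 18.5 in homozygous arrays and 48.8 and 10.9 in heterozygous arrays. Cd79a and Jchain lay the other way, at 39.1 and 58.5 in homozygous arrays and 42.7 and 62.9 in heterozygous arrays. The groups overlapped at all 7. The summed B cell signal ran from 491.2 to 601.1 in homozygous arrays and from 463.1 to 528.8 in heterozygous arrays. None of the 8 T and NK cell markers was bright enough to be tested, and Gzma, Cd8a and Cd3g lay between 24.1 and 150.6 on all arrays. Endothelial markers, from cells that also carry class I molecules, had positive differences at 4 of 4 tested genes, with a median of 0.33. The groups overlapped at 0 of these 4, whereas they did not overlap at 10.3% of all genes tested. Of the 4, 2 had an unadjusted p under 0.05, with 0 past adjustment in limma, beside 4.81% of all genes tested. They were Kdr and Egfl7, named after their values were seen. The count under 0.05 was 1 of 3 tested without homozygous 1 and 1 of 4 without heterozygous 1 or without heterozygous 3. Beside it stood 3.22%, 6.57% and 7.27% of genes tested in those fits. The summed endothelial signal was 1608.2 to 1695.7 in homozygous arrays and 1285.1 to 1379.2 in heterozygous arrays. Of 8 neutrophil markers, 5 were tested, and all 5 had positive differences, with a median of 0.48. Of the 5, 3 had an unadjusted p under 0.05 in limma, beside 4.81% of all genes tested. Those 3 were S100a8, S100a9 and Camp, named after their values were seen. Without homozygous 1 the median was 0.17 and 0 of 4 tested had an unadjusted p under 0.05. The count was 0 of 5 without heterozygous 1 and 1 of 5 without heterozygous 3, with 0 past adjustment in limma throughout. The shares of all genes tested in these fits were again 3.22%, 6.57% and 7.27%. The summed neutrophil signal was 8589.9 to 13019.5 in homozygous arrays and 9008.7 to 9756.3 in heterozygous arrays. Most of it came from Ltf, at 4908.5 to 8209.6 in homozygous and 5527.8 to 6484.0 in heterozygous arrays, a log2 difference of 0.03. Homozygous 3 was the highest array for Ltf, whereas homozygous 1 was for S100a8, S100a9, Camp and Ngp. Ltf and Ngp were named after their values were seen. So were the neutrophil markers under the filter, Elane, Mpo and Cxcr2. The fit without a filter gave them log2 differences of -0.20, 0.42 and 0.03. For Mpo, homozygous 1 read 229.9, against 76.6 to 86.8 on the other 5 arrays. Red cell markers had positive differences at 3 of 3 tested genes, with 0 at an unadjusted p under 0.05. Their median was 0.53, which was 0.25 without homozygous 1. The part of these cells in the members' values was not tested. No marker was listed at 0, and without detection calls none was taken as absent.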

How the data were processed

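The deposited table holds 1 intensity value per probe set and array for 6 olfactory epithelium RNA samples. Per the submitters' processing notes the deposited intensity values are MAS5 signals, on a linear scale; the sources used here do not give its version, its settings or a genome build. Array medians lay between 147.9 and 163.7, and no further scaling was applied; the number of arrays limits the precision. The log2 scale was that of log2(value + 38.8), an offset equal to the pooled 25th percentile, which understates changes of dim probe sets. Of 45101 probe sets, 64 were controls, and 22514 others reached the filter, a mean log2 value of 7.6 (the median, a signal near 154.6). These were compared in limma 3.58.1 under R 4.3.3 (lmFit, then eBayes with a trend on intensity), two-sided, with Benjamini-Hochberg adjustment at 0.05, 4 residual degrees of freedom and 6.68 prior ones. The fit was tested on simulated data. A gene's brightest probe set is that of highest mean log2 value among those naming 1 gene. Symbols come from the platform annotation.

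The members and lists were chosen with earlier results of these data known. Named were all members, pathway genes at an unadjusted p under 0.05, the 2 brightest genes of each pathway list, H2-Ea, Ciita and Psmb10 by choice, up to 3 markers per cell type used, and the 5 genes most like the class II mean. H2-DMb1 was not analysed here. The alternatives were offsets of 16 and 156.6 (the pooled median), quantile normalization, a common median, no filter or one at the 75th percentile, no intensity trend, a replicate block and each array left out. Leaving out heterozygous 1 and 3 together, and the marker counts without single libraries, were added after the data were seen. Arrays of different groups with the same replicate number did not deviate together.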

Additional observations from a re-analysis of the deposited data

How the results depend on the processing

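In limma, all 12 tested member probe sets stayed above an adjusted p of 0.05 under every alternative that kept them, the lowest being 0.505. With a common median Cd74 differed by -0.0367, H2-Aa 1435290_x_at by -0.0091 and Tap2 by -0.0167, and after quantile normalization Tap2 by -0.0106, each turning sign. Without heterozygous 1 and 3 together, chosen after seeing the data, the median over the members was -0.1403. Then Cd74 was -0.2606, H2-Aa -0.1586 at 1435290_x_at and -0.1765 at 1438858_x_at, H2-Ab1 -0.1262 at 1450648_s_at and -0.2694 at 1451721_a_at, H2-Eb1 -0.1006, and B2m -0.0632 at 1449289_a_at and -0.1100 at 1452428_a_at, all set against 1 heterozygous array assumed to vary like the others. In that setting 27 probe sets passed adjustment, and 1 member, Cd74, had an unadjusted p under 0.05.

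With 1 array left out, the member median ran from 0.0171 to 0.1786, members at an unadjusted p under 0.05 from 0 to 4, pathway genes from 0 to 3, and probe sets past adjustment from 0 to 25, the most without heterozygous 1. Single differences then ran from -0.0892 to 0.1387 for Cd74, from -0.1002 to 0.129 for H2-Aa 1435290_x_at, from -0.0181 to 0.2826 for H2-Aa 1438858_x_at, from -0.0027 to 0.2889 for H2-Ab1 1450648_s_at and from -0.1108 to 0.2078 for Tap2. They ran from 0.0244 to 0.4378 for H2-Ab1 1451721_a_at, from 0.0377 to 0.2316 for H2-Eb1, and for B2m from 0.0285 to 0.1687 at 1449289_a_at and from 0.0278 to 0.1885 at 1452428_a_at, and Psmb8 was under the filter without homozygous 3. With the pooled-median offset 1 probe set passed adjustment. Pathway genes at an unadjusted p under 0.05 numbered 0 with a common median, 2 with no filter (H2-Ea and Ifngr1) and 0 with the filter at the 75th percentile, which tests fewer genes. With no intensity trend 1 member, Psmb8, had an unadjusted p under 0.05. The cause of these shifts was not tested.

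With the replicate block the member median was 0.0902, 0 members had an unadjusted p under 0.05 and 0 probe sets passed adjustment. Same-numbered arrays had correlations of 0.016, -0.116 and -0.047 in their deviations from the group means, no homozygous array correlated best with its own number, and the numbers were not taken as pairs. Dim signal limits Tap1, Psmb9 and most dendritic and lymphocyte markers, whose changes the offset shrinks.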

Other observations

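Dim dendritic cell markers were chosen for mention after their values were seen. Flt3, a receptor that dendritic cell development depends on, read 50.6, 79.8 and 52.2 in homozygous arrays, against 22.6, 14.2 and 9.2 in heterozygous arrays. Xcr1, a chemokine receptor of cross-presenting dendritic cells, read 26.3, 38.1 and 25.7 in homozygous arrays, against 13.0, 8.0 and 8.5 in heterozygous arrays. Ccr7, which guides dendritic cells to lymph nodes, read 10.9, 7.4 and 9.1 in homozygous arrays, against 2.9, 3.0 and 2.7 in heterozygous arrays. Batf3, a transcription factor of the cross-presenting lineage, went the other way, at 21.5, 62.2 and 52.3 in homozygous arrays, against 86.8, 78.5 and 69.0 in heterozygous arrays. The groups thus did not overlap at 4 of 8 markers, 3 higher and 1 lower in homozygous arrays, beside 10.8% of all probe sets without a filter. The fit without a filter gave log2 differences of 0.88 for Flt3, 0.50 for Xcr1, 0.20 for Ccr7 and -0.51 for Batf3, with limma adjusted p values from 0.882 to 0.906. That share counts every probe set, whereas the markers were taken at 1 probe set a gene. All 4 markers were under the filter on dim probe sets, a signal near 154.6. Every value of Xcr1 and Ccr7 lay below 38.8, the 25th percentile of all pooled values. Whether readings this low exceed background was not tested.

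Nlrc5, known as the regulator of class I genes, was dim and was also chosen after its values were seen. It read 51.7, 50.7 and 55.4 in homozygous arrays, against 19.9, 42.5 and 33.3 in heterozygous arrays. Its groups did not overlap, beside 10.8% of all probe sets without a filter. The fit without a filter gave a log2 difference of 0.38 with a limma adjusted p of 0.905. Of the 11 regulator genes with a probe set, 3 lay higher and 1 lower in homozygous arrays without overlap. The groups of B2m, H2-K1 and H2-D1 overlapped.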
